A study of Mus musculus with 15 samples.

Results

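The genes described here are p53 itself (Trp53), 6 genes usually counted among its targets or partners (Cdkn1a, Trp53inp1, Mdm2, Ccng1, Phlda3 and Bbc3) and the polo-like kinases Plk2 and Plk3, which are stress-responsive kinases. They are 9 genes of the 20660 with a probe on the array, and every probe that a RefSeq accession ties to them was kept apart, which gave 11 probes. Both Cdkn1a and Trp53inp1 have 2 probes, called here the brighter and the dimmer, and the other genes have 1 each. All 11 probes passed the filter on dim probes (well above background on at least 3 of the 15 arrays), and 10 of them were above background on all 15. The exception was the dimmer Cdkn1a probe, above background on 11.

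Total RNA of whole pancreas from male C57BL/6J mice, wild type (WT) or transgenic (TG), was read on 1-colour Agilent arrays, with 1 array for each animal. Mice fasted for 18 h and received a single intraperitoneal injection of saline, or of 50 µg/kg cerulein in saline, and were killed 3 h later; cerulein is a cholecystokinin analogue used to induce acute pancreatitis, and the saline arrays carry a time label of 0 h. Arrays came from 4 WT saline, 4 WT cerulein, 3 TG saline and 4 TG cerulein mice, each a separately numbered animal. The series title names betacellulin and ERBB4, while the transgene, its promoter and the animals' ages are not given in the sources used here, and all groups share sex, strain and fasting.

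p53 is a transcription factor that is held at low protein levels by the ubiquitin ligase Mdm2 and accumulates when DNA damage or other stress frees it. It binds pairs of a degenerate decamer and raises genes that stop the cell cycle (Cdkn1a), promote cell death (Bbc3) or feed back on p53 (Mdm2, Ccng1). Its control is largely on the protein, so the mRNA of Trp53 is not a readout of its activity, and several of its targets also answer to other stress pathways. Trp53inp1 was described as a stress-induced gene of the rodent pancreas in acute pancreatitis, and it acts in cell death and autophagy.

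Levels are log2 processed signal minus the 75th percentile of the array, so that 0 is the brightness of the probe at that percentile. Probes differ in how they hybridise, so levels are compared between groups for a probe and not between probes. The 75th percentile was 152.2 to 237.3 intensity units in WT saline, 201.2 to 410 in WT cerulein, 179 to 282.8 in TG saline and 264.5 to 528.8 in TG cerulein arrays, and no spot was saturated. The arrays lie on 3 slides, of which slide 2 holds cerulein arrays alone. The single Btc probe averaged -4.41 ± 0.8 (SD, n = 4) in WT saline and -3.86 ± 0.38 (n = 3) in TG saline, above background on 1 of 4 and 2 of 3 arrays. It did not separate the genotypes, with a difference of 0.55 ± 0.49 (SE) after saline and of 0.49 ± 0.45 after cerulein (limma, adjusted p = 1 and 0.825), and whether this probe reads the transgene is not given in the sources used here.

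Upstream sequence of the members was taken from RefSeq (build GRCm38.p6), as the 250 bases before each annotated start. It covered 8 of the 9 genes with 11 windows, and Trp53inp1 had no entry. The Cdkn1a, Ccng1, Plk2 and Plk3 windows are shown. Cdkn1a and Ccng1 both hold a pair of p53 decamers and gave different measured responses. Plk2 holds the cAMP response element and Plk3 its core. A Bbc3 start, which also holds the core, is not shown. Capitals mark the p53 decamers in the Cdkn1a and Ccng1 windows, the cAMP response element TGACGTCA in Plk2 and its core TGACG in Plk3.
Cdkn1a start 1 (chr17:29090729-29090978, plus strand): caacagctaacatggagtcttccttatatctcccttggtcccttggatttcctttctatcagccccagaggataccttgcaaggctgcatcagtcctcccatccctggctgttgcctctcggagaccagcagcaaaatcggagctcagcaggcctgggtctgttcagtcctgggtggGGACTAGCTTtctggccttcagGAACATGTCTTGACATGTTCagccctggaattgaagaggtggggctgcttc
Cdkn1a start 2 (chr17:29093519-29093768, plus strand): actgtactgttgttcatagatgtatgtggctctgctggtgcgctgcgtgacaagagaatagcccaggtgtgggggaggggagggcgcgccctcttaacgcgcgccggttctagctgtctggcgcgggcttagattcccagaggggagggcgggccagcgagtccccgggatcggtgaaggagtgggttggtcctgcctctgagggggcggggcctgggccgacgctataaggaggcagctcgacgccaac
Ccng1 (chr11:40755287-40755536, minus strand): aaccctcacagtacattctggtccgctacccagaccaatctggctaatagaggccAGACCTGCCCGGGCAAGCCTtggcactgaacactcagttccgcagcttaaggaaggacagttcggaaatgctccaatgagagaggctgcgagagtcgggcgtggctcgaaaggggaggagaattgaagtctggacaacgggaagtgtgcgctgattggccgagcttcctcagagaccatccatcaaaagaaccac
Plk2 (chr13:110394794-110395043, plus strand): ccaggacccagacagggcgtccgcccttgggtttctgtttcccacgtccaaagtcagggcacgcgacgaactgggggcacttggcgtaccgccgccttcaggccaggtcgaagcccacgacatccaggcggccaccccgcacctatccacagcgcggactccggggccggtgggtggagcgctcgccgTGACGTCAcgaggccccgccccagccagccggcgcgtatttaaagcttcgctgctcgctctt
Plk3 (chr4:117133964-117134213, minus strand): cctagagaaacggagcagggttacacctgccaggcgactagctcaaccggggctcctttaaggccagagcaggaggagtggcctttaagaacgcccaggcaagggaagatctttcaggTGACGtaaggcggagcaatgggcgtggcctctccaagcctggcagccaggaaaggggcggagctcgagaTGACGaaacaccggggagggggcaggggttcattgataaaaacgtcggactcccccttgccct

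All motifs were searched on both strands. The p53 decamer was searched by its degenerate consensus, and the pair as 2 decamers end to end with at most 1 mismatch. The cAMP response element was searched as above together with its core, which is contained in it. The AP-1 motif was searched as TGAGTCA. The TATA box was searched as TATAAA. Cdkn1a start 1 holds a pair at -51 with 1 mismatch and a further decamer at -73, counted from the start, whereas its start 2, which lies within the gene's span, holds none of the motifs searched. Ccng1 holds a pair at -195 with 1 mismatch. Such a pair occurs in 0.0761% of 32851 windows of the same length (25 windows), and a single decamer in 7.13%. Mdm2 has a decamer at -186 and Trp53 at -75, and Trp53 also has the TATA letters at -248, found in 12.4% of windows. The Plk2 window has the whole cAMP response element at -62, present in 1.55% of windows, and Plk3 has its core at -132 and -63, as does a Bbc3 start at -55, against 17.8% of windows. Phlda3 and the other Bbc3 starts held none of the motifs. The tables used do not tie a start to an array probe, and a match in these letters is a description of the sequence, not a binding site.

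Cerulein raised the mRNA signal of Cdkn1a, Trp53inp1, Plk3 and Bbc3 and lowered that of Plk2 in both genotypes, while Mdm2, Ccng1, Phlda3 and Trp53 did not pass the test. In WT mice 5 of 11 probes were called higher, 1 lower and 5 not called (limma, Benjamini-Hochberg adjusted p below 0.05 over all 42181 kept probes). Over all kept probes 8.96% were called in WT, 4.05% higher and 4.91% lower. The same 6 probes were called in TG mice in the same directions, where 5.9% of all probes were called, 3.29% higher and 2.61% lower. The members' median difference was 0.27 in WT and 0.58 in TG, against 0.05 and -0.03 for all probes. Both member medians are the value of the dimmer Cdkn1a probe, which was not called and lay near the detection limit. The 6 called probes were also those whose saline and cerulein arrays did not overlap, in WT and in TG, where 14.5% and 18.6% of all kept probes did not overlap. In bulk tissue, a change in the RNA per cell and a change in the share of cells that carry it cannot be told apart.

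**Figure D1:**
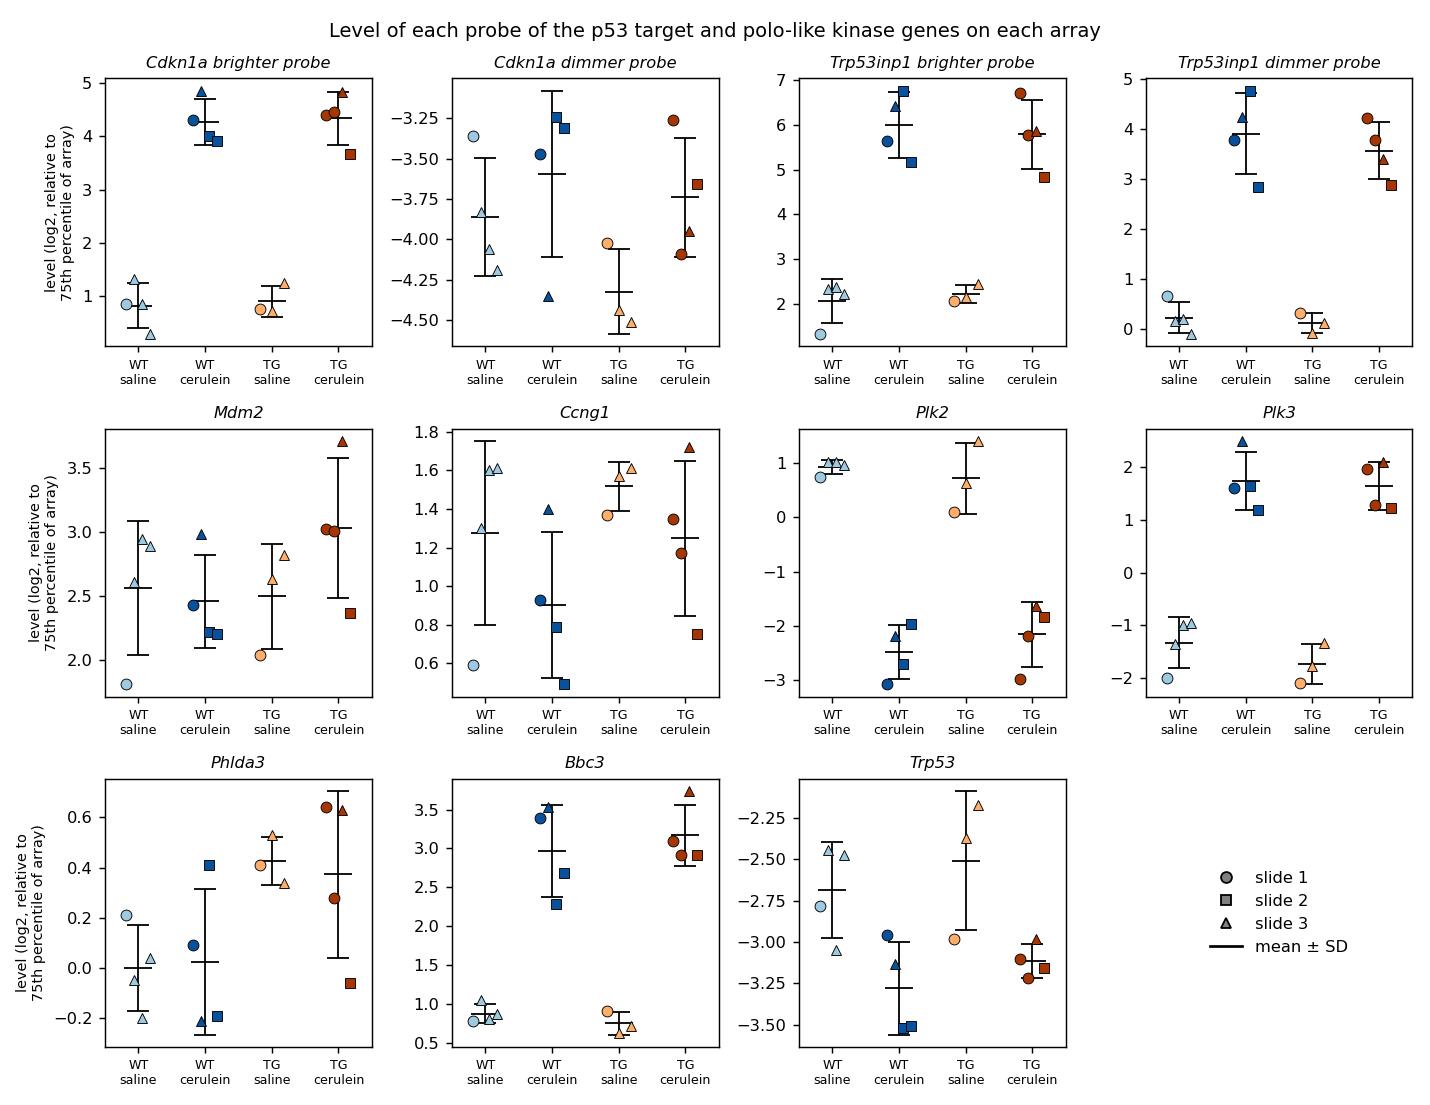
Level of each of the 11 probes on each of the 15 arrays (y axis, log2 relative to the array's 75th percentile), by group, with marker shape for the slide and bars for the mean ± SD. The cerulein arrays lie above every saline array for the brighter Cdkn1a probe, both Trp53inp1 probes, Plk3 and Bbc3 and below every saline array for Plk2, and the groups overlap for the others.

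Among the genes that act on the cell cycle, Cdkn1a encodes p21, an inhibitor of cyclin-dependent kinases, at chr17:29090979-29100722. Its brighter probe, assigned to NM_007669, read 0.84, 1.31, 0.85 and 0.28 in the 4 WT saline mice and 4.3, 4.86, 4 and 3.91 in the 4 WT cerulein mice. It read 0.75, 0.71 and 1.24 in the 3 TG saline mice and 4.4, 4.45, 4.84 and 3.66 in the 4 TG cerulein mice. Every cerulein array, from 3.66 up, was above every saline array of either genotype, which reached 1.31. The rise was 3.45 ± 0.3 (SE) in WT, or 10.9-fold with a 95% interval of 2.8 to 4.09 log2 units (adjusted p = 9.6e-06), and 3.44 ± 0.33 in TG, also 10.9-fold (2.74 to 4.14, adjusted p = 2.63e-05). Of all kept probes, 0.261% had a larger rise in WT. This probe is printed as 10 spots on each array, and the SD between its 9 or 10 usable spots was 0.051 to 0.156 log2 units, less than the spread between animals (SD 0.29 to 0.5).

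The dimmer Cdkn1a probe, assigned to NM_001111099, gave another picture. Its levels were -4.19 to -3.36 in WT saline, -4.35 to -3.24 in WT cerulein, -4.51 to -4.02 in TG saline and -4.09 to -3.26 in TG cerulein arrays, which overlapped in both comparisons. The differences were 0.27 ± 0.29 in WT (interval -0.34 to 0.88, adjusted p = 0.545) and 0.58 ± 0.31 in TG (-0.08 to 1.24, adjusted p = 0.345). It was above background on 3 of 4 arrays in each WT group, 1 of 3 TG saline arrays and 4 of 4 TG cerulein arrays, so its signal lay near the detection limit. The difference between the 2 probes was not tested, and no probe positions are given in the files.

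Ccng1, cyclin G1, which recruits a phosphatase to Mdm2, lies at chr11:40748552-40755309. It read 0.59, 1.3, 1.6 and 1.61 in WT saline and 0.93, 1.4, 0.79 and 0.49 in WT cerulein mice. It ranged from 1.37 to 1.61 in TG saline and from 0.75 to 1.72 in TG cerulein mice, so saline and cerulein arrays overlapped in both genotypes. The difference was -0.37 ± 0.28 in WT (-0.97 to 0.23, adjusted p = 0.396) and -0.27 ± 0.3 in TG (-0.92 to 0.38, adjusted p = 0.687). A rise of the size of that of the brighter Cdkn1a probe lies outside both intervals.

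The windows with a pair of p53 decamers belong to 25 genes, 11 of them measured here. Of these 11 genes, Cdkn1a was called higher in both genotypes and none was called lower, which is 9.09%, against 11.1% in WT and 6.94% in TG for all 13758 measured genes with a window. Their median difference was -0.24 in WT and -0.27 in TG, and they include Rps27l, also known as a p53 target, at -0.39 and -0.22 (adjusted p = 0.39 and 0.751). Among the 344 measured genes with the cAMP response element of the Plk2 window, 15.4% were called in WT, 36 higher and 17 lower, and 11% in TG, 29 higher and 9 lower, whereas Plk2 was lower in both.

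Trp53inp1, at chr4:11156441-11174379, encodes a nuclear stress protein that promotes the death-inducing activity of p53. Its brighter probe read 1.33, 2.33, 2.39 and 2.23 in WT saline and 5.63, 6.42, 6.76 and 5.17 in WT cerulein mice. TG saline mice read 2.07, 2.15 and 2.46, and TG cerulein mice 6.71, 5.76, 5.85 and 4.83. The groups did not overlap in either genotype, and 1 WT saline array, at 1.33, lay below the other 3. The rise was 3.93 ± 0.41 in WT, or 15.2-fold (3.05 to 4.8, adjusted p = 4.33e-05), and 3.56 ± 0.44 in TG, or 11.8-fold (2.61 to 4.51, adjusted p = 0.000261). The dimmer probe, assigned to the same transcript, NM_021897, gave similar sizes, from a mean of 0.22 ± 0.31 (SD, n = 4) to 3.9 ± 0.82 (n = 4) in WT and from 0.12 ± 0.2 (n = 3) to 3.56 ± 0.57 (n = 4) in TG. Its rises were 3.68 ± 0.37 and 3.45 ± 0.4 (SE), or 12.8-fold and 10.9-fold (adjusted p = 3.42e-05 and 0.000159).

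Bbc3 encodes PUMA, a pro-apoptotic member of the BCL2 family, at chr7:16308398-16318334. It read 0.78, 1.05, 0.8 and 0.87 in WT saline and 3.39, 3.53, 2.28 and 2.68 in WT cerulein mice. It read 0.91, 0.63 and 0.71 in TG saline and 3.1, 2.92, 3.74 and 2.91 in TG cerulein mice. The saline arrays of both genotypes lay between 0.63 and 1.05, and every cerulein array was above them, from 2.28 up. The rise was 2.1 ± 0.28 in WT, or 4.28-fold (1.5 to 2.69, adjusted p = 0.000307), and 2.42 ± 0.3 in TG, or 5.34-fold (1.77 to 3.06, adjusted p = 0.000259). It was the smallest of the called rises in both genotypes, and 1.3% of all kept probes rose more in WT.

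Phlda3, a small protein that competes with the kinase Akt for membrane lipids, lies at chr1:135766085-135769134. Its level was 0.21, -0.05, -0.2 and 0.04 in WT saline and 0.09, -0.21, 0.41 and -0.19 in WT cerulein mice. TG saline mice read 0.41, 0.53 and 0.34, and TG cerulein mice 0.64, 0.28, 0.63 and -0.06. Saline and cerulein arrays overlapped in both genotypes, with differences of 0.03 ± 0.21 in WT (-0.43 to 0.48, adjusted p = 0.947) and -0.05 ± 0.23 in TG (-0.55 to 0.44, adjusted p = 0.925). A rise of the size of that of Bbc3 lies outside both intervals.

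**Figure D2:**
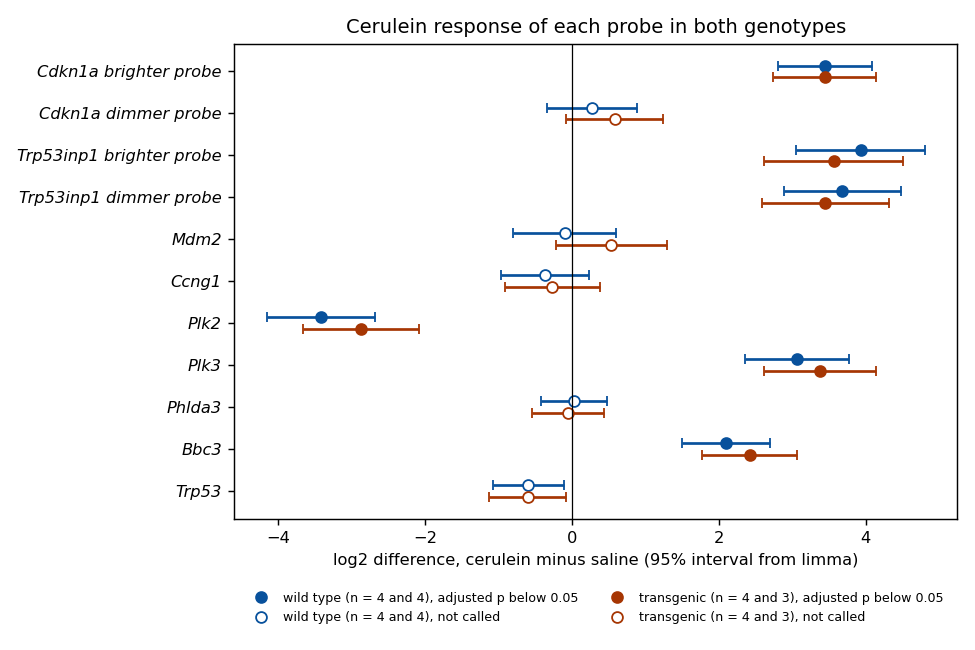
Difference between cerulein and saline arrays of each of the 11 probes (x axis, log2) with 95% intervals from limma, in WT (blue, 4 and 4 arrays) and TG mice (orange, 4 and 3 arrays), filled where the adjusted p was below 0.05. The 2 genotypes' intervals overlap for every probe, with called rises from 2.1 to 3.93 and falls of Plk2 at -3.42 and -2.87.

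Mdm2, the ubiquitin ligase that inhibits p53 and is itself a p53 target, lies at chr10:117688875-117710758. It read 1.81, 2.61, 2.94 and 2.89 in WT saline and 2.43, 2.98, 2.22 and 2.2 in WT cerulein mice. It read 2.04, 2.63 and 2.82 in TG saline and 3.02, 3.01, 3.71 and 2.37 in TG cerulein mice, where 3 of 4 cerulein arrays were above every saline array and the fourth was not. The difference was -0.1 ± 0.33 in WT (-0.8 to 0.6, adjusted p = 0.846) and 0.53 ± 0.35 in TG (-0.22 to 1.29, adjusted p = 0.468). The TG value depended on the slide: with slide as a block it was 0.93 and was called (adjusted p = 0.00182), and within slides 1 and 3 it was 0.98 and 0.98, while in WT the blocked value was 0.44 (adjusted p = 0.0922).

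Trp53 itself, at chr11:69580348-69591873, had a dim probe printed as 2 spots. It read -2.78, -2.44, -3.05 and -2.47 in WT saline and -2.96, -3.13, -3.52 and -3.51 in WT cerulein mice. TG saline mice read -2.98, -2.37 and -2.17, and TG cerulein mice -3.1, -3.22, -2.98 and -3.16. Cerulein arrays lay at the low end with an overlap in each genotype, and the difference was -0.6 ± 0.23 in WT and -0.6 ± 0.25 in TG (adjusted p = 0.12 and 0.19). Trp53 was called lower in WT with normexp background correction (-0.58, adjusted p = 0.0453). With arrays weighted by quality it was called lower in both genotypes (-0.7 and -0.83, adjusted p = 0.0212 and 0.00719). With slide as a block the limma difference was smaller, at -0.38 in WT and -0.45 in TG, and was not called (adjusted p = 0.275 and 0.162). Before scaling, its intensity was 19.2 to 36.4 in WT saline and 22.9 to 39.1 in WT cerulein arrays. In TG it was 34.6 to 41.7 after saline and 33.5 to 59.2 after cerulein. The part of the scaling in this difference was not tested. The SD between the 2 spots reached 0.619 log2 units on an array, with a median of 0.108.

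The polo-like kinases moved in opposite directions. Plk2, serum-inducible kinase, at chr13:110395044-110400844, read 0.74, 1.01, 1.02 and 0.96 in WT saline and -3.08, -2.19, -2.7 and -1.96 in WT cerulein mice. TG saline mice read 0.1, 0.64 and 1.41, and TG cerulein mice -2.98, -2.18, -1.63 and -1.83. The cerulein arrays, at most -1.63, lay below every saline array, at least 0.1, and all of them stayed above background. The difference was -3.42 ± 0.34 in WT (-4.15 to -2.68, adjusted p = 3.12e-05), and -2.87 ± 0.37 in TG, a 7.32-fold drop (-3.66 to -2.08, adjusted p = 0.000348). Of all kept probes 0.0284% fell more in WT. With normexp background correction the difference was smaller, at -2.28 in WT and -2.05 in TG, and was still called.

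Plk3, at chr4:117128655-117133963, is a kinase of the same family that responds to DNA damage and other stress. It read -2, -1.35, -1 and -0.96 in WT saline and 1.61, 2.5, 1.65 and 1.18 in WT cerulein mice. TG saline mice read -2.1, -1.77 and -1.34, and TG cerulein mice 1.97, 1.29, 2.09 and 1.22. The lowest cerulein array, at 1.18, was above the highest saline array, at -0.96. The rise was 3.06 ± 0.33 in WT, or 8.36-fold (2.36 to 3.77, adjusted p = 5.71e-05), and 3.38 ± 0.36 in TG, or 10.4-fold (2.61 to 4.14, adjusted p = 7.22e-05), and with normexp it was 2.34 and 2.63.

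**Figure D3:**
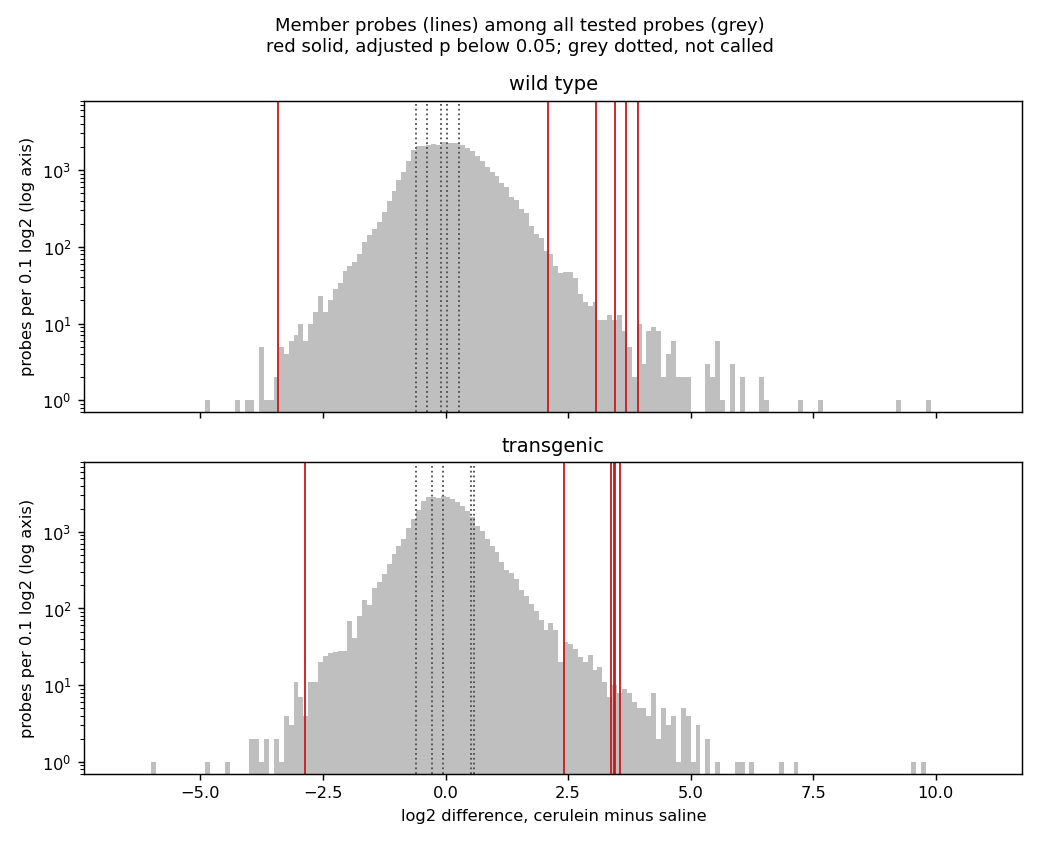
Number of kept probes by difference between cerulein and saline (x axis, log2, cerulein minus saline, in steps of 0.1; y axis logarithmic) in WT and TG mice, with a line at each of the 11 member probes, red where called and dotted where not. The 5 called rises and the fall of Plk2 lie in the thin tails of 42181 probes, and the 5 uncalled probes lie between -0.6 and 0.58.

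Slides 1 and 3 hold saline and cerulein arrays of both genotypes, so the response could also be read within a slide, as values with no test. For the brighter Cdkn1a probe it was 3.46 and 4.04 in WT and 3.68 and 3.87 in TG on slides 1 and 3. The brighter Trp53inp1 probe gave 4.3 and 4.1 in WT and 4.16 and 3.55 in TG. Plk2 gave -3.82 and -3.19 in WT and -2.68 and -2.65 in TG, and Plk3 between 3.6 and 3.73 in the 4 cases. Bbc3 gave 2.62 and 2.62 in WT and 2.1 and 3.07 in TG. All 6 called probes thus moved within each of these slides in the direction seen over all arrays. Trp53 stayed below 0, at -0.18 and -0.48 in WT and -0.17 and -0.71 in TG, whereas Ccng1 lay on both sides of 0.

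**Figure D4:**
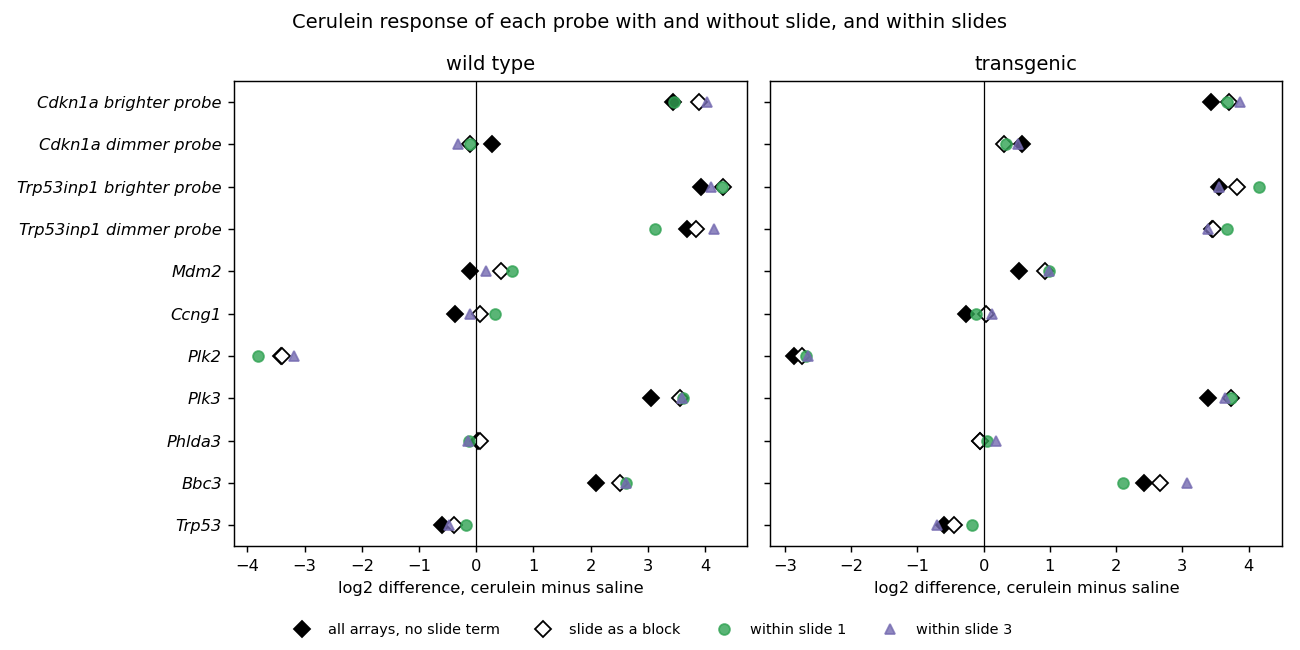
Difference between cerulein and saline (x axis, log2) of each probe over all arrays (filled diamonds), with slide as a block (open diamonds) and within slides 1 (circles) and 3 (triangles), in WT and TG mice. The 6 called probes keep their direction in each, and Mdm2 in TG shifts from 0.53 to 0.93 with the block.

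None of the 11 probes was called between the genotypes, and none had an unadjusted limma p below 0.05, after saline, after cerulein or for the difference between the cerulein responses. Over all kept probes 0.0237% were called after saline, 0.0593% after cerulein and 0% for the difference between responses (limma, with 396 at an unadjusted p below 0.05). The TG minus WT difference ranged from -0.46 ± 0.31 (the dimmer Cdkn1a probe) to 0.43 ± 0.23 (Phlda3) after saline and from -0.34 ± 0.37 (the dimmer Trp53inp1 probe) to 0.57 ± 0.33 (Mdm2) after cerulein. Phlda3 was the single probe whose genotypes did not overlap after saline, at 0.34 to 0.53 in TG against -0.2 to 0.21 in WT, with an adjusted p of 1. Across all probes 5.97% did not overlap in that comparison. After cerulein no member was free of overlap.

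The intervals of the difference in response (TG minus WT) are given for the main members. For the brighter Cdkn1a probe it was 0 ± 0.44 (-0.96 to 0.95), for the brighter Trp53inp1 probe -0.36 ± 0.6 (-1.66 to 0.93) and for Bbc3 0.32 ± 0.41 (-0.55 to 1.19). Plk2 gave 0.54 ± 0.5 (-0.54 to 1.62), Plk3 0.31 ± 0.49 (-0.73 to 1.35) and Mdm2 0.64 ± 0.48 (-0.39 to 1.67), all with an adjusted p of 1. None of these intervals excludes 0, and a p above the threshold does not show that the genotypes responded alike.

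Other genes of the pathway were counted by the brightest probe of each gene. Over all 17338 measured genes 11.2% were called in WT and 7.01% in TG by this rule, with a median difference of -0.06 in each. Of 49 other p53 targets 47 were measured, and 5 rose and 7 fell in WT (25.5%, median -0.27), while 5 rose and 1 fell in TG (12.8%, median -0.25). Over all probes of the 4 lists described here, paralogues included, the balance of rises and falls was not stable: 14 rose and 17 fell in WT, but 22 and 16 with slide as a block, 12 and 7 without WT saline replicate 7 or 8, 12 and 8 without WT saline replicate 6, 14 and 8 without WT cerulein replicate 12 and 16 and 28 without WT cerulein replicate 10. In TG 13 rose and 3 fell, but 25 and 13 with the block, 26 and 34 with array weights and 11 and 10 without TG cerulein replicate 15. These counts hold paralogues that passed the filter through their cerulein arrays. The filter thus favoured rises among them, and the balance is not read as a result. The 5 p53 targets that rose were the same in both genotypes. They were Gdf15, a secreted stress cytokine, the kinase receptor Epha2, the antiproliferative gene Btg2, the kinase gene Dyrk3 and the nuclease gene Aen, the last named after its values were seen. Gdf15 rose by 4.13 ± 0.55 in WT and 4.46 ± 0.59 in TG (adjusted p = 0.000312 and 0.000442), and Btg2 by 3.44 ± 0.32 and 3.89 ± 0.34 (1.46e-05 and 1.34e-05). Epha2 rose by 3.47 ± 0.54 and 3.11 ± 0.58 (0.00102 and 0.00514), with 2 of 4 WT saline arrays above background. Dyrk3 was also dim after saline, above background on 2 of 4 WT and 2 of 3 TG saline arrays. Tob1, a relative of Btg2 that also restrains proliferation and was picked after its values were seen, fell in both genotypes, with -2.67 ± 0.33 in WT and -2.53 ± 0.35 in TG (0.00017 and 0.000661). The other 6 WT falls, named after their values were seen, were Cyfip2 (-1.19), Siva1 (-1.11), Ddb2 (-1.04), Ercc5 (-1.04), Tigar (-1.02) and Xpc (-0.91). In TG these gave -0.78, -0.81, -0.75, -0.61, -0.85 and -0.45, with none called (adjusted p = 0.0729 to 0.433).

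Of 26 measured regulators and relatives of p53, 3 rose and 3 fell in WT (23.1%, median -0.22) and 3 rose and 0 fell in TG (11.5%, median -0.08). Trp53bp2, which encodes ASPP2, a promoter of p53-dependent death, rose by 1.94 ± 0.26 in WT and 1.98 ± 0.28 in TG (adjusted p = 0.000344 and 0.000751). Ppp1r13l, its inhibitory relative iASPP, rose by 1.49 ± 0.33 and 1.78 ± 0.35 (0.0107 and 0.00781). Dyrk2, a kinase that phosphorylates p53 in human cells, rose by 1.15 ± 0.27 and 1.2 ± 0.29 (0.0151 and 0.025). Ing1, a chromatin reader, fell by 1.43 ± 0.28 in WT (0.0058) and gave -1.03 ± 0.31 in TG (0.0668). The other WT falls, named after their values were seen, were those of Trp73, which encodes the p53 relative p73 (-1.17 ± 0.23), and Prkdc, a kinase of DNA repair (-1.07 ± 0.31). In TG they gave -0.79 ± 0.25 and -1.09 ± 0.33 (adjusted p = 0.0788 and 0.0706).

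Of 12 measured paralogues of the members, 5 (Ccng2, Hrk, Plk4, Phlda2 and Bcl2l11) were above background on fewer than 3 saline arrays. They passed the filter through their cerulein arrays, and no count or median is given over this list alone. Of the other 7, Trp53inp2, the paralogue of Trp53inp1 that acts in autophagy, rose by 1.48 ± 0.29 in WT and 1.64 ± 0.31 in TG (adjusted p = 0.00479 and 0.00577). Ccng2, a relative of Ccng1, was above background on no saline array and on every cerulein array, at least 1.53-fold higher in WT and at least 1.39-fold higher in TG. Hrk, a death gene of the same class as Bbc3, was above background on 1 of 4 WT saline and 4 of 4 WT cerulein arrays. Phlda2, a relative of Phlda3, was not above background on any TG saline array and was at least 2.63-fold higher after cerulein in TG. These values are descriptions, with no test read from them. Bounds of this kind set the mean of the bright group against a mean over the arrays of the dim group. Each of those arrays gave the probe's level, or the array's lowest signal well above background where that was higher.

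Among 19 measured cell cycle genes around cyclin-dependent kinases and p21, 0 rose and 1 fell in WT (5.26%, median -0.39) and 0 were called in TG (0%, median -0.17). The fall was that of Ccnd1, cyclin D1, by 1.06 ± 0.28 in WT (adjusted p = 0.0302), with -1.01 ± 0.3 in TG (0.0688). No gene of these lists was called between the genotypes or for the difference in response, where 0.0461% of all measured genes were called after saline and 0.0923% after cerulein. None of these counts was tested against other genes.

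**Figure D5:**
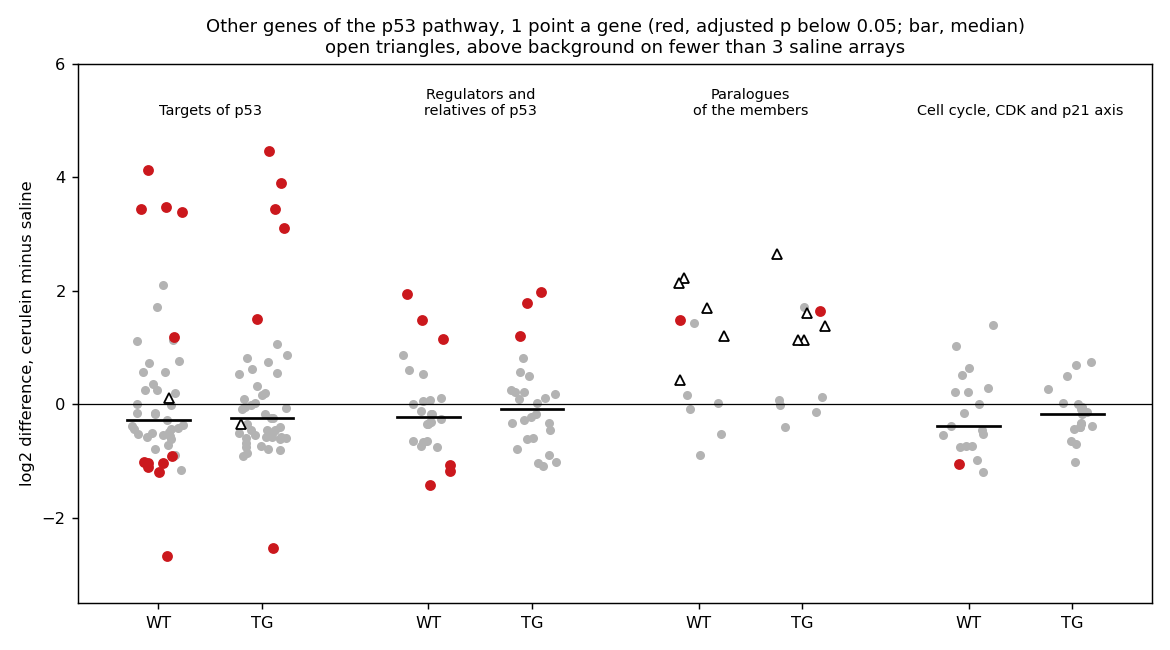
Difference between cerulein and saline (y axis, log2) of the brightest probe of each measured gene in 4 lists around p53, in WT and TG mice, red where the adjusted p was below 0.05, with a bar at the median. Medians lie at -0.27 and -0.25 for the 47 targets, and no median is drawn for the paralogues; open triangles are fitted values, not bounds, of genes above background on fewer than 3 saline arrays.

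The genes whose level followed a called member most closely were sought over the 15 arrays by the mean absolute difference of centred log2 levels. For Cdkn1a these were Tuft1 (0.21), Ifrd1 (0.22) and Ptpn14 (0.27), and for Trp53inp1 Tuft1 (0.33), Macc1 (0.36) and Btg2 (0.39). Plk3 was closest to Ifrd1 (0.22), Chka (0.23) and Btg2 (0.23), and Bbc3 to Rccd1 (0.17), Rnf19a (0.18) and Ptpn23 (0.19). Plk2 was closest to Rfxap, Foxa2 and Rab3a, at 0.38 each. Between cerulein and saline in WT, the genes close to members that rose differed by 2.03 to 3.96 and those close to Plk2 by -3.8 to -2.65. These genes were chosen for closeness over the same arrays, so a like response follows from the choice and is no separate result.

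Markers of pancreatic cell types were read on the same arrays. The 8 acinar markers on the array were above background on every array, with a summed level of 13.61 to 14.36 in WT saline, 12.91 to 14 in WT cerulein, 13.46 to 14.04 in TG saline and 12.58 to 13.53 in TG cerulein, and 1 of 8, Ptf1a, was called, higher in both genotypes. The other 7, all secreted enzymes, were not called and had lower means after cerulein, with differences of -0.88 to -0.68 in WT and -0.88 to -0.59 in TG. Of 6 neutrophil markers, S100a8 and S100a9 were called higher in WT and none in TG, where S100a9 averaged 0.99 after saline against -2.91 in WT. No marker of any of these cell types was called between the genotypes, after saline or after cerulein. All 6 were above background on every WT cerulein array, but 1 of 6 was on every WT saline array. The summed neutrophil level was 6.65 to 7.51, 6.26 to 7.5, 7.14 to 7.61 and 6.45 to 7.55 in the 4 groups in the same order, and is set by Csf3r (7.26, 6.74, 7.4 and 6.85), so it does not show the levels of S100a8 and S100a9. Of 5 macrophage markers Cd14 was higher and of 5 duct markers Sox9 was lower in both genotypes, and no islet, lymphocyte, fibroblast, endothelial or adipocyte marker was called. The summed lymphocyte level, led by Cd3e, was lower after cerulein without overlap, at 4.35 to 4.87 against 5.06 to 5.34 in WT and 3.68 to 4.69 against 5.05 to 5.29 in TG. The summed fibroblast level, led by Dcn, was higher in TG without overlap, at 6.54 to 7.36 against 5.8 to 6.41 after saline and 6.83 to 7.87 against 5.39 to 6.44 after cerulein. In TG mice the macrophage sum, led by Csf1r, was also lower after cerulein without overlap (4.85 to 5.3 against 5.36 to 5.49). So was the endothelial sum, led by Kdr (5.19 to 6.5 against 6.52 to 7.31). The other markers of these lists went both ways in TG, from -0.21 (Lyz2) to 1.24 (Cd14) and from -0.5 (Cdh5) to 0.27 (Pecam1). Lymphocyte markers other than Cd3e were also mixed, from -0.45 (Ms4a1) to 0.6 (Cd8a) in WT and from -1.99 (Ms4a1) to 0.44 (Cd8a) in TG. After saline the duct sum was higher in TG (1.92 to 2.13 against 1.21 to 1.83). Each level has the 75th percentile of its array subtracted, so a probe of unchanged signal reads lower where that percentile is higher. The percentile was 201.2 to 410 in WT cerulein against 152.2 to 237.3 in WT saline arrays. In TG it was 264.5 to 528.8 after cerulein against 179 to 282.8 after saline. The part of this scaling in the lower marker levels after cerulein was not tested. Nor was the part of these cell types in the members' responses.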

How the data were processed

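Agilent Feature Extraction 10.7.3.1 made the deposited intensity values, per the file headers: a background-subtracted processed signal for each spot, with no adjustment between arrays. Spot flags (unit other, with values of 0 or 1) are deposited in the same files. The authors also deposited log2 values of these arrays. How they were normalised is not given in the sources used here, and they served only as an alternative.

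Control spots and outlier-flagged spots were left out, spots of a probe were averaged, and each array's log2 signals were set relative to their 75th percentile. Accessions named 27235 of 55681 probes by 1 symbol with RefSeq annotation (GRCm38.p6). Probes well above background on at least 3 of 15 arrays were kept, 42181 in all. The 4 group means were fitted with limma 3.58.1 in R 4.3.3 (lmFit, eBayes, no covariate, 11 residual and 3.26 prior degrees of freedom; files read with version 1.17.8 of the data.table package). Tests were two-sided, with Benjamini-Hochberg adjustment over all kept probes within each of 5 comparisons and a threshold of 0.05. The script was tested on simulated data. Normexp (offset 50) used the median signal of each spot, since the mean signal column planned for it is not in these files. The slide was read from the array headers and tried as a block. Errors are SD for group means and SE for differences, and the number of arrays limits the precision.

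The members, lists, markers and alternatives were chosen with earlier results of these data known, so no list was tested. Named beside the members are, per list and cerulein comparison, the 3 called genes with the largest difference, with Btc as a check of the labels, and the 3 genes closest to each called member; others are said to be picked later. Not every gene so named is described. No column of another series was used.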

Additional observations from a re-analysis of the deposited data

Results flagged for a closer look

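The brighter Trp53inp1 probe read 1.33 in WT saline replicate 5, while the other 3 WT saline arrays read 2.23 to 2.39. The gap was 0.848 of the group's range, above Dixon's 95% critical value for 4 samples. It is the single such value among 33 groups of 4 arrays examined over the 11 probes, and chance flags about 1 in 20 groups. Replicate 5 is the only WT saline array on slide 1, the other 3 being on slide 3, so the animal and the slide cannot be told apart for this gap. The dimmer Trp53inp1 probe had its highest WT saline level on the same array, at 0.65.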

How the results depend on the processing

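All 6 called probes kept their direction and their call in both genotypes under each alternative that gave a test and included them, and 6 of 11 were called in each fit that left out 1 array. Over the alternatives the WT difference of the brighter Cdkn1a probe ranged from 3.17 to 3.89, of the brighter Trp53inp1 probe from 3.69 to 4.32, of Plk2 from -3.56 to -2.28, of Plk3 from 2.34 to 3.56 and of Bbc3 from 1.89 to 2.51. Calls were gained with arrays weighted by quality for Ccng1 in WT (-0.6, adjusted p = 0.0297) and for the dimmer Cdkn1a probe in TG (0.58, 0.0445), beside those of Mdm2 and Trp53 given above; the cause was not tested. Uncalled probes changed sign in 17 WT and 7 TG values.

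Called probes of the other p53 pathway genes numbered 31 in WT and 16 in TG, out of 55, 38, 12 and 28 probes in the 4 lists. Over all 42181 kept probes 8.96% and 5.9% were called. The pathway counts were 69 and 60 with array weights and 38 in TG with slide as a block. All-probe counts rose too, to 18597 and 15052 with array weights and 7120 in TG with the block. The pathway counts include the paralogues that passed the filter through their cerulein arrays. Leaving out 1 array gave 19 to 44 in WT, with 20 without WT saline replicate 6 and 19 without replicate 7 or 8, and 12 to 21 in TG; the split into rises and falls is given with the lists. Between genotypes, where 0 were called, array weights gave 2 after saline and 1 after cerulein, against 290 and 731 of all kept probes.

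Counts over all probes moved more: from 3779 in WT to 6055 with slide as a block, 18597 with array weights, 2374 with the compared groups alone and 2425 with 1 probe a gene, and from 2489 in TG to 7120, 15052, 1315 and 1421. Without 1 array they were 2127 to 7297 and 1102 to 3037. The share of calls that were higher was 45.2% in WT and 55.8% in TG, 25.2% and 39.1% with normexp, and 63.2% and 58.7% with slide as a block. Normexp moved the median of all probes to -0.24 in both genotypes. No paired analysis was possible because the groups share no replicate number. Probes near background, such as the dimmer Cdkn1a probe, limit what these arrays can show.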
